A study of Homo sapiens with 36 samples.

Results

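The hnRNP H/F family was followed here as 5 genes, HNRNPH1, HNRNPH2, HNRNPH3, HNRNPF and GRSF1, of 11437 genes with a kept reading in the series. The members were chosen by gene symbol, and every probe that carries one of these symbols on the array is reported. There were 10 such probes. Of these, 8 were detected (detection p under 0.01) on at least 3 of the 36 arrays and were kept for testing, and each of the 5 genes had at least 1 kept probe.

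Proteins of this family bind runs of guanine in RNA through a variant RNA-recognition fold, the quasi-RRM, and near a splice site they can raise or lower the use of an exon. HNRNPH1 and HNRNPH2 encode near-identical nuclear proteins, HNRNPF a close relative, and HNRNPH3 a shorter one. GRSF1 encodes a G-rich-RNA-binding relative that is concentrated in the RNA granules of mitochondria. In Ewing sarcoma cells whose chromosomal breakpoint keeps an additional EWSR1 exon, hnRNP H1 is known to help remove that exon from the EWS-FLI1 fusion transcript.

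TC32, a human Ewing sarcoma cell line, was grown in one medium and harvested for total RNA 48 h after transfection with 20 nM siRNA, and the RNA was read on Illumina bead arrays. SUPT6H, which encodes a histone chaperone and transcription elongation factor, was silenced with siSUPT6H_A1, siSUPT6H_A3 and siSUPT6H_Q3. SF3B1, which encodes a core spliceosome subunit that holds the branch point, was silenced with siSF3B1_A2, siSF3B1_A3 and siSF3B1_Q3, and HNRNPH1 with siHNRNPH1_A2, siHNRNPH1_A3 and siHNRNPH1_Q3. Each of the 9 siRNAs had 3 arrays. The references were 6 arrays of the negative control siRNA siNeg and 3 arrays of Untreated cells, taken as untransfected from the treatment text although their dose field also reads 20 nM. The siNeg arrays formed 2 sets of 3, since their description numbers restart at 1, and siHNRNPH1 arrays were compared with set 2, siSUPT6H and siSF3B1 arrays with set 1. All groups share the one cell line, and nothing in the labels says that arrays of a group came from separate cultures, so p-values measure the spread between these arrays, which may be technical. In these bulk samples fewer cells and less RNA per cell cannot be told apart.

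The arrays detected between 13106 and 16788 probes each, with correlations of 0.988 to 0.995 between replicate arrays. The authors' deposited normalized values had a median of 6.53 on 24 arrays (siSUPT6H, siSF3B1, siNeg set 1 and Untreated) and 6.44 on the other 12 (siHNRNPH1 and siNeg set 2), so the arrays are described as a 24-array and a 12-array group. SUPT6H fell to 29.3% of siNeg set 1 with its siRNAs and SF3B1 to 40.9 and 25.4% on its 2 kept probes. Of 7 Ewing sarcoma markers on the array, 7 were detected on at least 18 arrays and 6, CD99, NKX2-2, STEAP1, LIPI, PRKCB and CCND1, on all 36. Of 20 markers of blood, epithelial, endothelial and fibroblast cells, 4 were detected on at least 18 arrays (CD14, CD68, COL1A1 and COL3A1), and PTPRC, CD3E, CDH1 and KRT5 were among those detected on none.

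**Figure D1:**
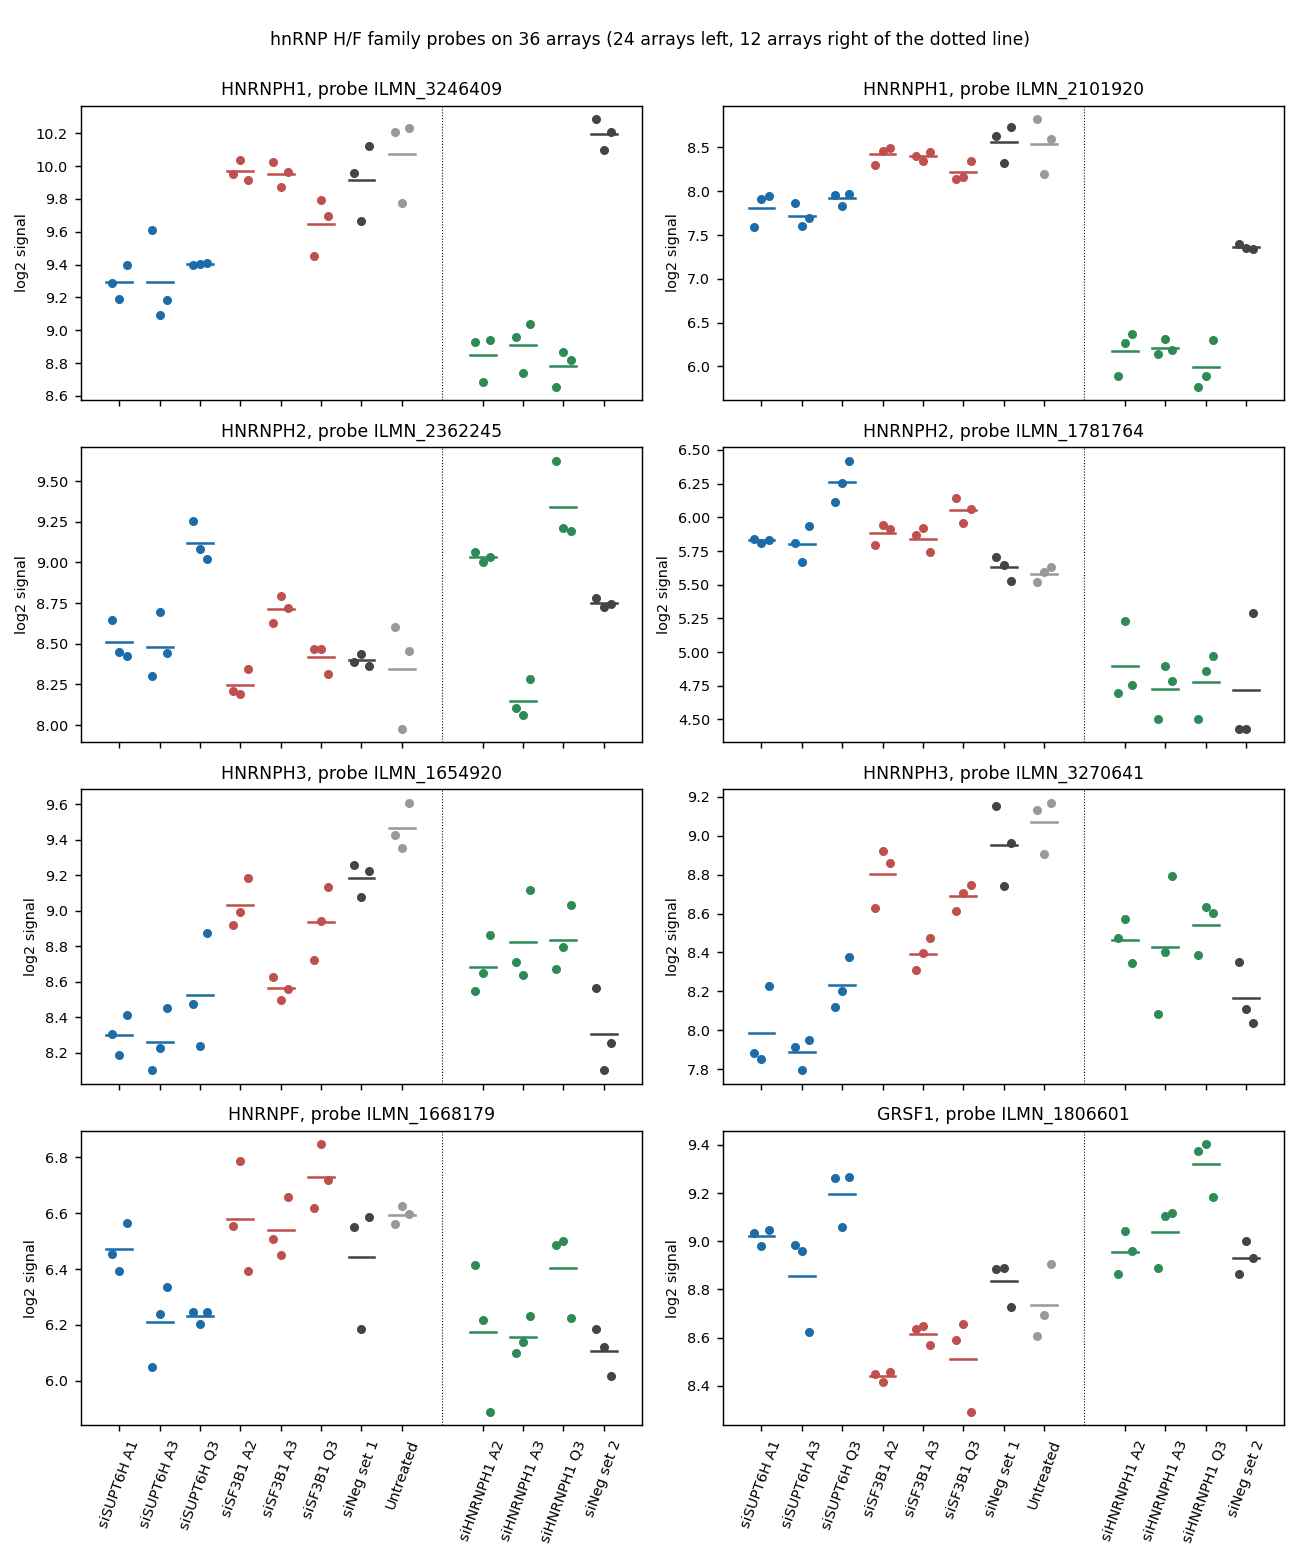
Log2 signal (y axis) of the 8 kept probes on all 36 arrays. Each point is 1 array, each horizontal line the mean of the 3 arrays of a group, siRNA groups stand left of their siNeg set, and the dotted line separates the 24-array group from the 12-array group. Both HNRNPH1 probes are lowest with the 3 siHNRNPH1 siRNAs, and both HNRNPH3 probes have their lowest group means in the 24-array group with siSUPT6H.

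HNRNPH1, the gene targeted by siHNRNPH1, was read by 3 probes, of which ILMN_2101920 and ILMN_3246409 were detected on all 36 arrays. Probe ILMN_2101928 was detected on 1 array (siSF3B1_Q3, replicate 3), with raw signals of 78.5 to 102.9, and gives no level. On ILMN_3246409, log2 signals were 8.93, 8.69 and 8.94 with siHNRNPH1_A2, 8.96, 8.74 and 9.04 with siHNRNPH1_A3, and 8.65, 8.87 and 8.82 with siHNRNPH1_Q3, against 10.29, 10.10 and 10.21 with siNeg set 2. All 9 silenced arrays lay below the lowest control array. The log2 difference was -1.35 (SE 0.10, adjusted p = 7.81e-17 by limma with Benjamini-Hochberg adjustment over all 19738 kept probes), which leaves 39.2% of the control signal (95% interval 34.3 to 44.9).

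ILMN_2101920 gave nearly the same size of fall. Its log2 signals were 5.89, 6.27 and 6.37 with siHNRNPH1_A2, 6.14, 6.32 and 6.18 with siHNRNPH1_A3, and 5.76, 5.89 and 6.30 with siHNRNPH1_Q3, against 7.40, 7.35 and 7.35 with siNeg set 2. Again no silenced array overlapped a control array, and the difference was -1.24 (SE 0.11, adjusted p = 2.06e-13), or 42.4% of control. The 3 siRNAs gave -1.19, -1.15 and -1.38 on this probe and -1.35, -1.29 and -1.42 on ILMN_3246409, and the F test among the siRNAs called neither (adjusted p = 0.343 and 0.675). The change of ILMN_2101920 minus that of ILMN_3246409 was 0.11 (95% interval -0.15 to 0.38, adjusted p = 0.669 over 4685 pairs of kept probes of one gene). In the authors' deposited log2 values the same difference was 0.50 (adjusted p = 1.19e-05), and with no background correction 0.49 (adjusted p = 1.81e-05). Whether HNRNPH1 lost the same share of signal on both probes therefore depended on the background correction. ILMN_2101920 was dim with siHNRNPH1, at raw signals of 103.0 to 138.8, against 198.1 to 232.9 with siNeg set 2. The rarely detected ILMN_2101928 read 78.5 to 102.9 over all arrays.

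With siHNRNPH1 the paralogs did not move as a block. Of the 8 kept probes 4 were called, 2 lower (both HNRNPH1) and 2 higher (both HNRNPH3), where 37.8% of all kept probes were called, 20.1% lower and 17.8% higher. The median of the 8 was 0.115, against -0.02 over all kept probes. The 8 include HNRNPH2 ILMN_1781764, which was mostly not detected in these groups and gives no fold here. HNRNPF, HNRNPH2 and GRSF1 gave no call over the mean of the 3 siRNAs.

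Against siNeg set 2, HNRNPH3 was higher with siHNRNPH1, a direction that did not hold against controls from the 24-array group. On ILMN_1654920, log2 signals were 8.55, 8.65 and 8.86 with siHNRNPH1_A2, 8.71, 8.64 and 9.12 with siHNRNPH1_A3, and 8.68, 8.80 and 9.03 with siHNRNPH1_Q3, against 8.56, 8.10 and 8.26 with siNeg set 2. In 8 of 9 silenced arrays the signal was above the highest control array, 8.56. The difference was 0.47 (SE 0.11, adjusted p = 0.000346), 1.39-fold, and each siRNA was called alone, at 0.38, 0.52 and 0.53. The call with siHNRNPH1_A2 was lost without siNeg replicate 5 (0.28, adjusted p = 0.157), siNeg replicate 6 or its own replicate 3. On ILMN_3270641 the silenced arrays ran from 8.09 over a median of 8.47 to 8.79, against 8.35, 8.11 and 8.04 with siNeg set 2, and 7 of 9 were above the highest control. The difference was 0.31 (adjusted p = 0.0132), called with siHNRNPH1_Q3 alone (0.37, adjusted p = 0.0164, lost without siNeg replicate 5 or 6 or its own replicate 2 or 3) but not with siHNRNPH1_A2 (0.30) or siHNRNPH1_A3 (0.26). The rise was not called on either probe under median scaling, at 0.20 (adjusted p = 0.305) and 0.04 (adjusted p = 0.858). The median of all kept probes was itself -0.12 there. Nor was the rise called with the siRNAs as a random block (adjusted p = 0.104 and 0.324). Without siNeg replicate 5 or replicate 6 the call on ILMN_3270641 was lost (0.28 and 0.25). With Untreated as control both probes were called lower, at -0.68 (ILMN_1654920, adjusted p = 4.22e-07) and -0.59 (ILMN_3270641, adjusted p = 2.73e-06). With all 6 siNeg arrays neither was called, at 0.0343 (adjusted p = 0.76) and -0.0815 (adjusted p = 0.417). Both settings bring in arrays of the 24-array group.

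HNRNPH2, the near-identical paralog of HNRNPH1, was read on ILMN_2362245 (detected on all 36 arrays) and on the dim ILMN_1781764 (26 of 36). On ILMN_2362245 log2 signals were 9.06, 9.0 and 9.03 with siHNRNPH1_A2, 8.10, 8.06 and 8.28 with siHNRNPH1_A3, and 9.62, 9.21 and 9.19 with siHNRNPH1_Q3, against 8.78, 8.73 and 8.74 with siNeg set 2. None of the 4 groups overlapped another. The signal with siHNRNPH1_A3 lay under the control and that with the other two siRNAs above it. Singly, siHNRNPH1_A3 lowered it by -0.60 (adjusted p = 4.64e-05), to 65.9%, and siHNRNPH1_Q3 raised it by 0.59 (adjusted p = 5.12e-05), to 151%. With siHNRNPH1_A2 it differed by 0.28, which missed the threshold (adjusted p = 0.0546). The F test among the 3 siRNAs gave an adjusted p of 1.68e-11, where 33.7% of kept probes were called by that test, and the mean over the siRNAs was 0.09 (95% interval -0.10 to 0.28). Under median scaling the rise with siHNRNPH1_Q3 was not called (0.28, adjusted p = 0.188, where the median of all kept probes was -0.13). With Untreated as control the fall with siHNRNPH1_A3 was not called (-0.20, adjusted p = 0.162). The mean was called higher both there (0.50, adjusted p = 1.69e-05) and with all 6 siNeg arrays (0.27, adjusted p = 0.00224). Both controls bring in arrays of the other array group, and siNeg set 2 lay 0.35 above the other siNeg set on this probe. The values with these controls therefore do not test the siHNRNPH1 change alone.

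The sequences of the probes and siRNAs were not used here, so how far these HNRNPH2 and HNRNPH1 probes read each other's transcript, or the siRNAs match both, was not tested. HNRNPH2 readings are uncertain for that reason. ILMN_1781764 was detected on 0 of 3 arrays with siHNRNPH1_A3 and siHNRNPH1_Q3 and on 1 of 3 with both siHNRNPH1_A2 and siNeg set 2. No fold is drawn from it there.

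HNRNPF and GRSF1, with 1 probe each, were not called with siHNRNPH1 against siNeg set 2. For HNRNPF (ILMN_1668179), silenced arrays ran from 5.89 over a median of 6.22 to 6.50, against 6.19, 6.12 and 6.02 with siNeg set 2, and the groups overlapped. The difference was 0.14 (95% interval -0.08 to 0.36, adjusted p = 0.358). For GRSF1 (ILMN_1806601), silenced arrays ran from 8.86 over 9.11 to 9.40, against 8.86, 9.0 and 8.93, with a difference of 0.17 (95% interval 0.0049 to 0.34, adjusted p = 0.101). GRSF1 rose with siHNRNPH1_Q3 alone, whose arrays read 9.38, 9.40 and 9.19 (0.39, adjusted p = 0.00207), and the siRNAs differed by the F test (adjusted p = 0.00894). Under median scaling that rise was not called (0.0734, adjusted p = 0.757, where the median of all kept probes was -0.13). With Untreated as control the HNRNPF mean was called lower (-0.35, adjusted p = 0.00635) and the GRSF1 mean higher (0.37, adjusted p = 0.000207). GRSF1 was also called higher with all 6 siNeg arrays (0.22, adjusted p = 0.00404). Both controls bring in arrays of the other array group. The difference of siNeg set 2 from the other siNeg set was -0.33 for HNRNPF and 0.10 for GRSF1. The calls with these controls therefore do not test the siHNRNPH1 change alone.

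**Figure D2:**
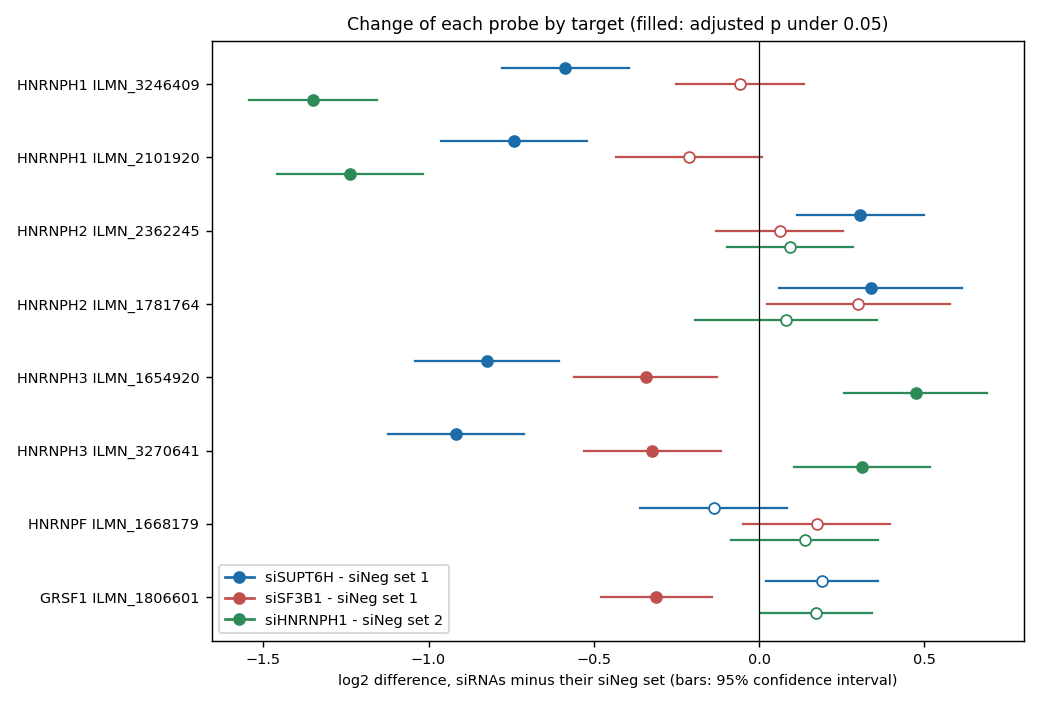
Log2 difference (x axis) of each kept probe (y axis) between the 3 siRNAs of a target and their siNeg set, with the 95% confidence interval as a bar; filled points passed an adjusted p of 0.05. HNRNPH1 is lowest with siHNRNPH1 (-1.35 and -1.24), and the HNRNPH3 probes lie on opposite sides of 0 with siSUPT6H (-0.82 and -0.92) and siHNRNPH1 (0.47 and 0.31).

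Against siNeg set 1, silencing SUPT6H lowered HNRNPH1 and HNRNPH3 with each of its 3 siRNAs and on both kept probes of each gene. Not all of these calls held under other settings. With all 6 siNeg arrays as controls, HNRNPH1 ILMN_2101920 was not called for the mean (-0.14, adjusted p = 0.164) or for any siRNA (-0.15, -0.24 and -0.0394 with A1, A3 and Q3), and HNRNPH3 ILMN_1654920 was not called with siSUPT6H_Q3 (-0.22, adjusted p = 0.114). Median scaling ended the call of siSUPT6H_Q3 on HNRNPH1 ILMN_3246409 (-0.41, adjusted p = 0.0504). Of the 8 kept probes 6 were called, 4 lower and 2 higher, where 40.4% of all kept probes were called, 19.8% lower and 20.6% higher. The median of the 8 was -0.36, against 0.00 over all kept probes.

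HNRNPH3 fell the most. On ILMN_3270641 log2 signals were 7.88, 7.85 and 8.23 with siSUPT6H_A1, 7.92, 7.79 and 7.95 with siSUPT6H_A3, and 8.12, 8.20 and 8.38 with siSUPT6H_Q3, against 9.15, 8.74 and 8.96 with siNeg set 1. All 9 silenced arrays were below the 3 control arrays. The difference was -0.92 (SE 0.10, adjusted p = 1.85e-10), or 53% of control. ILMN_1654920 ran from 8.10 over 8.30 to 8.87 in silenced arrays, against 9.26, 9.08 and 9.23, again without overlap, and differed by -0.82 (adjusted p = 1.08e-08). The 3 siRNAs singly gave -0.66 to -0.93 on this probe and -0.72 to -1.07 on the other, all called. The third probe, ILMN_2341645, was detected on 1 array (siNeg set 2, replicate 5), with raw signals of 77.4 to 101.2, and gives no level.

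HNRNPH1 fell as well. On ILMN_2101920 log2 signals were 7.59, 7.91 and 7.95 with siSUPT6H_A1, 7.86, 7.60 and 7.70 with siSUPT6H_A3, and 7.96, 7.83 and 7.97 with siSUPT6H_Q3, against 8.63, 8.32 and 8.73 with siNeg set 1. The groups did not overlap, and the difference was -0.74 (SE 0.11, adjusted p = 2.06e-07), or 59.8% of control. On ILMN_3246409 silenced arrays ran from 9.09 over 9.40 to 9.61, against 9.96, 9.67 and 10.12, and the difference was -0.59 (adjusted p = 1.54e-06). The 3 siRNAs did not differ by the F test on either probe (adjusted p = 0.530 and 0.734). The 2 probes changed by amounts that differed by -0.16 (95% interval -0.42 to 0.11).

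HNRNPH2 went the other way, and with 1 siRNA. On ILMN_2362245 log2 signals were 9.26, 9.08 and 9.02 with siSUPT6H_Q3, but 8.65, 8.45 and 8.43 with siSUPT6H_A1 and 8.30, 8.70 and 8.44 with siSUPT6H_A3, against 8.39, 8.44 and 8.37 with siNeg set 1. The siSUPT6H_Q3 arrays stood above all others of the 24-array group. The mean over siRNAs differed by 0.31 (adjusted p = 0.00761), siSUPT6H_Q3 alone by 0.72 (adjusted p = 1.44e-06), and siSUPT6H_A1 and siSUPT6H_A3 by 0.11 and 0.08, not called. The F test among the siRNAs gave an adjusted p of 1.41e-05, where 27.3% of kept probes were called, and the mean was not called with the siRNAs as a random block (adjusted p = 0.471) or with all 6 siNeg arrays as controls (0.13, adjusted p = 0.14). The all-6 control averages in siNeg set 2, and set 2 minus set 1 was 0.35 on this probe. ILMN_1781764 read 6.11, 6.25 and 6.42 with siSUPT6H_Q3, against 5.71, 5.65 and 5.53 with siNeg set 1. Its mean difference of 0.34 (adjusted p = 0.0447) was lost without any 1 of the 3 siNeg arrays (adjusted p = 0.0668, 0.0968 and 0.176) and with no filter on dim probes (adjusted p = 0.0881).

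HNRNPF read 6.05 to 6.57 (median 6.25) with siSUPT6H, against 6.55, 6.19 and 6.59 with siNeg set 1, and differed by -0.14 (95% interval -0.36 to 0.08). GRSF1 read 8.62 to 9.27 (median 9.04) with siSUPT6H, against 8.89, 8.89 and 8.73, and 8 of 9 silenced arrays were above the highest control. Its mean difference of 0.19 missed the threshold (adjusted p = 0.0653) but passed it without siSUPT6H_A3 replicate 3 (0.23) or siSUPT6H_Q3 replicate 2 (0.21). With siSUPT6H_Q3 alone it rose by 0.36 (adjusted p = 0.00402), and the siRNAs differed (F test adjusted p = 0.0301). With Untreated as control both means were called, HNRNPF at -0.29 (adjusted p = 0.0303) and GRSF1 at 0.29 (adjusted p = 0.00448).

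Singly, siSUPT6H_A1, siSUPT6H_A3 and siSUPT6H_Q3 called 4, 4 and 7 of the 8 probes, where 34.2, 36.9 and 36.1% of all kept probes were called. The siSF3B1 siRNAs A2, A3 and Q3 called 1, 3 and 3, where 52.4, 47.3 and 52.8% were called, and the siHNRNPH1 siRNAs A2, A3 and Q3 called 3, 4 and 6, where 33.4, 32.4 and 34.8% were called.

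**Figure D3:**
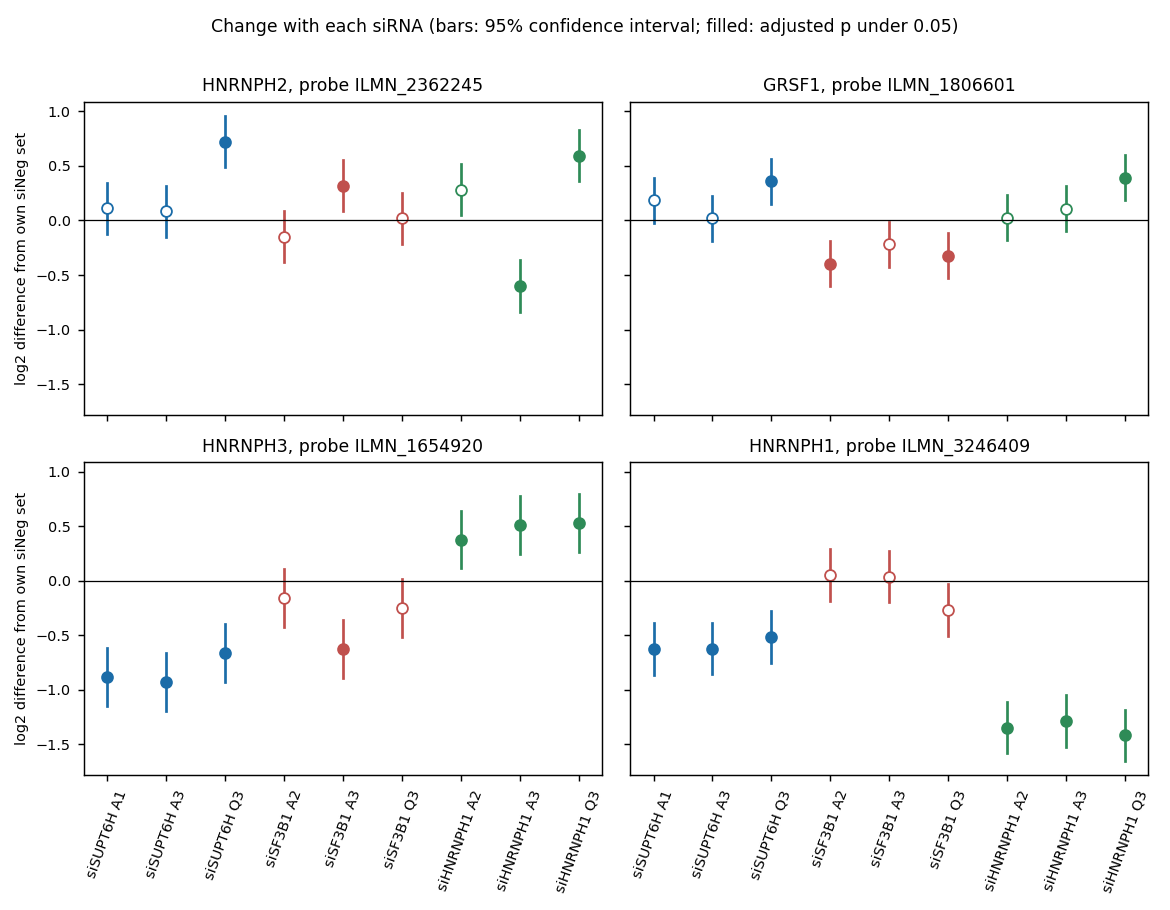
Log2 difference (y axis) between each of the 9 siRNAs (x axis) and its own siNeg set for 4 probes, with 95% confidence intervals as bars and filled points where the adjusted p was under 0.05. HNRNPH1 is called below 0 with all siSUPT6H and siHNRNPH1 siRNAs, whereas HNRNPH2 ILMN_2362245 is called above 0 with siSUPT6H_Q3 (0.72), siSF3B1_A3 (0.32) and siHNRNPH1_Q3 (0.59) and below 0 with siHNRNPH1_A3 (-0.60).

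One promoter window each of HNRNPH1, HNRNPH2 and HNRNPH3 is shown, picked after HNRNPH1 and HNRNPH3 fell with siSUPT6H and HNRNPH2 did not. Each is 300 bases around an annotated RefSeq start on GRCh38.p14, mostly upstream of it and written in the direction of the gene. Against siNeg set 1, HNRNPF and GRSF1 were not called lower with siSUPT6H either. Whether any motif bears on the changes was not tested. Where a gene has several windows the one with most CpG dinucleotides is printed. HNRNPH1 had 4 windows (chr5:179623352-179623651, minus strand), HNRNPH2 had 1 (chrX:101407972-101408271, plus strand) and HNRNPH3 had 3 (chr10:68331443-68331742, plus strand). Capitals mark exact matches, on either strand, to one of 5 motifs. The GC box was searched as GGGCGG and the CCAAT box as CCAAT. The E-box was searched as CACGTG and the TATA box as TATAAA, and the cAMP response element as TGACGTCA.
HNRNPH1: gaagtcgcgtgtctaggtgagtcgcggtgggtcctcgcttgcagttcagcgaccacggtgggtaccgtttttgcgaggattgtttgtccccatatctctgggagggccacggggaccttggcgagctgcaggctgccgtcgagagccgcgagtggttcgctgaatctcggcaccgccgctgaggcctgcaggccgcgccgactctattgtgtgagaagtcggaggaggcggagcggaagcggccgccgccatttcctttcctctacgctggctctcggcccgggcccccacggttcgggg
HNRNPH2: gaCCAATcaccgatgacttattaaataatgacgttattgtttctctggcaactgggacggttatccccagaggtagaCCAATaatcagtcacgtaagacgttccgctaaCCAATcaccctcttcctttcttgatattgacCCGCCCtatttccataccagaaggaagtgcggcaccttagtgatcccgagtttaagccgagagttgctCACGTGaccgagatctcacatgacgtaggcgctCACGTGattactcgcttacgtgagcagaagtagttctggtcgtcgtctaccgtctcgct
HNRNPH3: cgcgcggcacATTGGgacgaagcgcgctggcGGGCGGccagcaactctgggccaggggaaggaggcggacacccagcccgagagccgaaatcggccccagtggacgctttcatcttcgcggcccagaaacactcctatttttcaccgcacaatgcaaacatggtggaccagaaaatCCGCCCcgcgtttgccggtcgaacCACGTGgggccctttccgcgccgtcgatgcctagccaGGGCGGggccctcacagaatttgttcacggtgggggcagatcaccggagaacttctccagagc
The HNRNPH1 window held none of the 5 motifs. The HNRNPH2 window held 1 GC box, 3 CCAAT boxes and 2 E-boxes, and the HNRNPH3 window held 3 GC boxes, 1 CCAAT box and 1 E-box, with no match overlapping another. The windows of HNRNPF and GRSF1, not printed, held 2 GC boxes and 1 CCAAT box, and 1 GC box and 1 CCAAT box. Of all 35116 RefSeq windows of the same length, 45% held a GC box, 34.6% a CCAAT box, 7.26% an E-box, 11.5% a TATA box and 1.85% a cAMP response element. The 3 windows are 66.0, 48.7 and 64.0% G and C for HNRNPH1, HNRNPH2 and HNRNPH3 in that order. These are letter matches in one window per gene, and the arrays give no reading of binding there.

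With siSF3B1, 3 of the 8 kept probes were called, all lower, where 56.7% of all kept probes were called and 30.3% were called lower. The median of the 8 was -0.14, against -0.01 over all kept probes. None of the 3 calls held with the siRNAs as a random block, where 0 of 8 were called by limma and 1 of 8 had an unadjusted p under 0.05.

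GRSF1, which binds G-rich mitochondrial transcripts, was lower on every siSF3B1 array. Log2 signals were 8.45, 8.41 and 8.46 with siSF3B1_A2, 8.64, 8.65 and 8.57 with siSF3B1_A3, and 8.59, 8.65 and 8.29 with siSF3B1_Q3, against 8.89, 8.89 and 8.73 with siNeg set 1. No silenced array reached the lowest control. GRSF1 fell by 0.31 on the log2 scale (SE 0.08, adjusted p = 0.0013), to 80.6% of control, and siSF3B1_A2 and siSF3B1_Q3 were called singly (-0.39 and -0.32) while siSF3B1_A3 was not (-0.22, adjusted p = 0.0768). The siSF3B1_Q3 call was lost without its replicate 3 (-0.21, adjusted p = 0.109) and with Untreated as control (-0.22, adjusted p = 0.0624). With the siRNAs as a random block the adjusted p was 0.119.

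Against siNeg set 1, HNRNPH3 was also lower, and called singly on both probes with siSF3B1_A3. On ILMN_1654920 log2 signals were 8.92, 8.99 and 9.19 with siSF3B1_A2, 8.63, 8.50 and 8.56 with siSF3B1_A3, and 8.73, 8.95 and 9.14 with siSF3B1_Q3, against 9.26, 9.08 and 9.23 with siNeg set 1. The siSF3B1_A3 arrays lay below all other groups but the siSUPT6H ones of the 24-array group. The mean difference was -0.34 (adjusted p = 0.00559), that with siSF3B1_A3 was -0.62 (adjusted p = 9.08e-05), and the other siRNAs were not called (-0.16 and -0.25). The F test called the siRNAs different (adjusted p = 0.0254, where 11.2% of kept probes were called). On ILMN_3270641 silenced arrays ran from 8.31 over 8.63 to 8.92, against 9.15, 8.74 and 8.96. Its mean difference of -0.32 (adjusted p = 0.00618) was lost without siNeg replicate 1 (-0.22, adjusted p = 0.112), and only siSF3B1_A3 was called singly of the siSF3B1 siRNAs (-0.56). With the siRNAs as a random block the adjusted p was 0.176 and 0.183 on the 2 probes. With all 6 siNeg arrays as controls the means turned to 0.0965 (ILMN_1654920, adjusted p = 0.321) and 0.0695 (ILMN_3270641, adjusted p = 0.458). The siSF3B1_A3 calls were lost there on both probes (-0.18, adjusted p = 0.17, and -0.17, adjusted p = 0.194). That control averages in siNeg set 2, and set 2 minus set 1 was -0.88 and -0.79 on these probes. It therefore does not test the siSF3B1 change alone.

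HNRNPH1 differed by -0.21 on ILMN_2101920 (95% interval -0.43 to 0.01, adjusted p = 0.0972) and by -0.06 on ILMN_3246409 (95% interval -0.25 to 0.13, adjusted p = 0.628) with siSF3B1. ILMN_2101920 read 8.14 to 8.50 (median 8.35) with siSF3B1, against 8.63, 8.32 and 8.73 with siNeg set 1, with overlap. It passed the threshold without siNeg replicate 2 (-0.33, adjusted p = 0.0244), in the authors' deposited values (-0.18, adjusted p = 0.0388), with no background correction (-0.18, adjusted p = 0.0447), under median scaling (-0.33, adjusted p = 0.0488) and with siSF3B1_Q3 alone (-0.34, adjusted p = 0.0305, up to 0.162 without 1 array). With all 6 siNeg arrays as controls ILMN_2101920 was called in the other direction (0.39, adjusted p = 0.000118), and ILMN_3246409 was called lower (-0.20, adjusted p = 0.0183). That control averages in siNeg set 2, and set 2 minus set 1 was -1.20 on ILMN_2101920. The turn is therefore no measure of the siSF3B1 change. Against siNeg set 1 the 95% interval on ILMN_2101920 reached from -0.43 to 0.01, so neither its call nor its direction is settled. HNRNPH2 differed by 0.06 on ILMN_2362245 (95% interval -0.13 to 0.25) and by 0.30 on ILMN_1781764 (adjusted p = 0.0586), although on the second probe all 9 silenced arrays, 5.74 to 6.14, lay above the controls at 5.71, 5.65 and 5.53. Under median scaling the second difference was -0.0258, but the median of all kept probes was itself -0.12 there, and relative to it the difference was 0.099. It passed the threshold with Untreated as control (0.35, adjusted p = 0.0282) and in the authors' deposited values (0.14, adjusted p = 0.0144). On ILMN_2362245 the siRNAs differed (F test adjusted p = 0.0135), with siSF3B1_A3 called higher (0.32, adjusted p = 0.0214), a call lost without siNeg replicate 3 or its own replicate 2 (adjusted p = 0.0586 and 0.0864), with all 6 siNeg arrays (0.14, adjusted p = 0.235), under median scaling (adjusted p = 0.0814) and with no filter on dim probes (adjusted p = 0.0541). HNRNPF read 6.39 to 6.85 (median 6.62) with siSF3B1, against 6.55, 6.19 and 6.59, and differed by 0.17 (95% interval -0.05 to 0.40). Under median scaling it differed by -0.15, or by -0.0261 relative to the median of all kept probes. With all 6 siNeg arrays it was called higher (0.34, adjusted p = 0.000572), but set 2 minus set 1 was -0.33 on this probe.

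Tested directly against each other, siSUPT6H and siSF3B1 arrays differed on 7 of the 8 kept probes, where 69.2% of all kept probes were called. HNRNPH1 differed by -0.53 on both probes (adjusted p = 4.56e-08 and 1.73e-09), siSUPT6H minus siSF3B1. HNRNPH3 differed by -0.48 and -0.59, GRSF1 by 0.50 (adjusted p = 1.6e-10) and HNRNPH2 by 0.24 on ILMN_2362245. HNRNPF differed by -0.31 (adjusted p = 0.000427). ILMN_1781764 gave 0.04 (95% interval -0.16 to 0.23). Under median scaling the median of all kept probes was 0.13 for this contrast. HNRNPF lost its call there at 0.0594 (adjusted p = 0.569), or -0.0748 relative to that median. ILMN_1781764 was called at 0.42 (adjusted p = 0.00012), or 0.28 relative to it.

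The siHNRNPH1 change, taken from siNeg set 2, was also tested against the changes of the other targets, taken from siNeg set 1. Against siSUPT6H 4 of 8 probes were called, where 24.7% of all kept probes were. HNRNPH3 differed by 1.30 (ILMN_1654920, adjusted p = 3.07e-09) and 1.23 (ILMN_3270641, adjusted p = 3.66e-09), the largest differences between targets in the family for this pair. Their size rests on the 2 siNeg sets, since set 2 minus set 1 was -0.88 and -0.79. Mean signals with siHNRNPH1 and siSUPT6H lay closer, at 8.78 and 8.36 on ILMN_1654920 and at 8.48 and 8.04 on ILMN_3270641. HNRNPH1 differed by -0.76 on ILMN_3246409 (adjusted p = 2.13e-05). On ILMN_2101920 it differed by -0.50 (adjusted p = 0.0148), a call lost without siNeg replicate 2 (-0.38, adjusted p = 0.103) and in the authors' deposited values (-0.03, adjusted p = 0.885). Against siSF3B1 5 of 8 probes were called, where 46.1% of all kept probes were, with HNRNPH3 at 0.82 and 0.63, HNRNPH1 at -1.03 and -1.29, and GRSF1 at 0.48 (adjusted p = 0.000655). Under median scaling the GRSF1 call (0.31, adjusted p = 0.129) and that of ILMN_3270641 (0.45, adjusted p = 0.0537) were lost. With 1 control for both targets, siHNRNPH1 minus siSF3B1 on HNRNPH3 turned to -0.0622 (ILMN_1654920, adjusted p = 0.461) and -0.15 (ILMN_3270641, adjusted p = 0.0563). HNRNPF was called in neither against its own siNeg sets.

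The siNeg sets themselves differed on most of these probes, and for HNRNPH1 the difference was not the same on its 2 probes. Set 2 minus set 1 was called on 6 of the 8 probes, where 34.7% of all kept probes were called. For HNRNPH1 it was -1.20 on ILMN_2101920 (7.40, 7.35 and 7.35 in set 2, against 8.63, 8.32 and 8.73 in set 1; adjusted p = 3.32e-10), but 0.28 on ILMN_3246409 (adjusted p = 0.0572). For HNRNPH2 it was 0.35 on ILMN_2362245 (adjusted p = 0.0157). ILMN_1781764 is among the 6, but it was detected on only 1 of 3 set 2 arrays and read 4.43, 4.43 and 5.29 in set 2, against 5.71, 5.65 and 5.53 in set 1, and no fold is drawn from it. HNRNPH3 gave -0.88 and -0.79, HNRNPF -0.33 (adjusted p = 0.0488) and GRSF1 0.10 (adjusted p = 0.494). The HNRNPF call was lost in 22 of 36 fits that left out 1 array and with no filter on dim probes (adjusted p = 0.0928). A replicate block gave -0.22 (adjusted p = 0.322). The block was fitted within each array group, so across the sets that value stands for arrays numbered 1 and does not test the mean. The call of ILMN_2362245 was lost under median scaling (0.0807, adjusted p = 0.778), where the median of all kept probes was -0.13.

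The pair difference, first minus second probe, was -1.48 for HNRNPH1 (95% interval -1.80 to -1.15, adjusted p = 2.51e-09), and -0.99 in the authors' deposited values (adjusted p = 7.3e-11), where 31% of the 4685 pairs were called. For HNRNPH3 it was -0.09 (95% interval -0.41 to 0.22). The HNRNPH2 pair holds ILMN_1781764 and gives no measure of the sets for that reason; the authors' deposited values gave -0.27 for it (adjusted p = 0.0739). Within a target, against its own siNeg set, none of the 3 member pairs was called with siSUPT6H or siSF3B1, nor were the HNRNPH1 and HNRNPH3 pairs with siHNRNPH1, where 14, 33.1 and 12.4% of pairs were called with siSUPT6H, siSF3B1 and siHNRNPH1 in that order. With siSUPT6H the HNRNPH2 pair interval was -0.34 to 0.40. The HNRNPH1 pair was called with siHNRNPH1 in the authors' deposited values (0.50, adjusted p = 1.19e-05 by limma) and with no background correction. The cause of the difference between the sets cannot be told apart from the 24-array and 12-array groups, since each set lies in 1 of them. In the authors' deposited values the set difference was negative on HNRNPH1 ILMN_3246409 (-0.34), HNRNPH2 ILMN_2362245 (-0.19) and GRSF1 (-0.41), so its sign on those 3 probes is not settled.

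**Figure D4:**
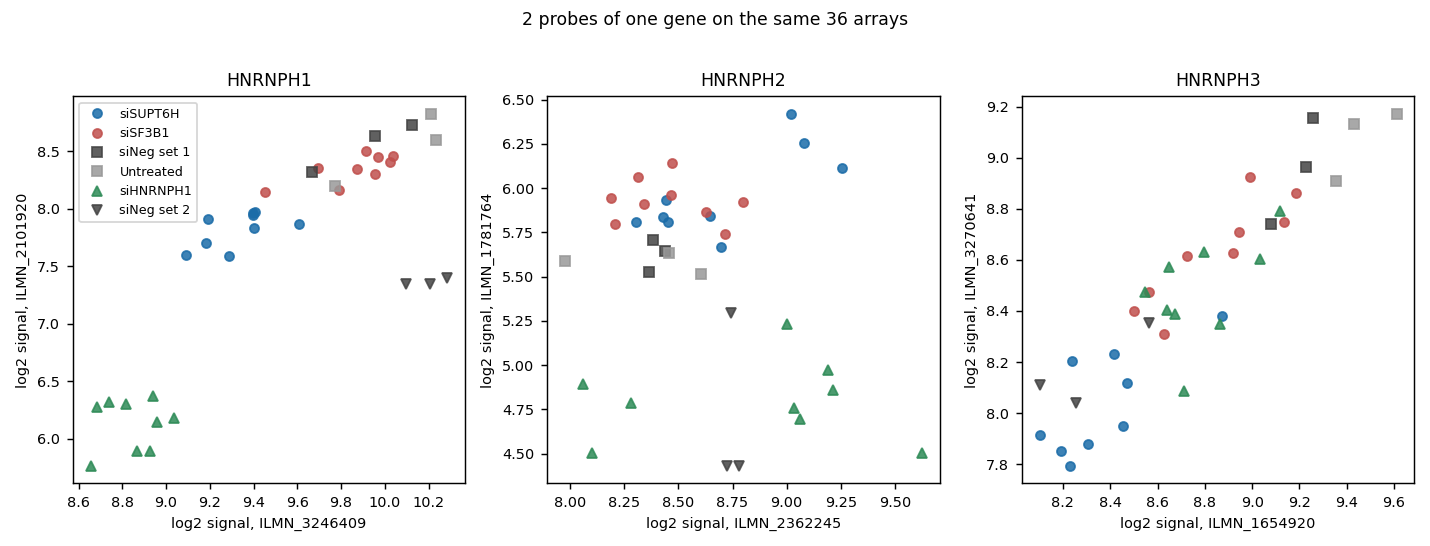
Log2 signals of 2 kept probes of HNRNPH1, HNRNPH2 and HNRNPH3 (x and y axes), where each point is 1 of the 36 arrays, coloured by target with triangles for the 12-array group. For HNRNPH1 the siNeg set 2 arrays lie apart from the line of the 24-array group, at 10.10 to 10.29 on the x axis and 7.35 to 7.40 on the y axis, whereas HNRNPH3 arrays of both groups lie along one line.

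Transfection with siNeg set 1 against Untreated gave 0 of 8 calls in limma, where 5.52% of all kept probes were called, and 1 of 8 had an unadjusted p under 0.05. That probe was HNRNPH3 ILMN_1654920, at 9.26, 9.08 and 9.23 with siNeg set 1, against 9.43, 9.35 and 9.61 in Untreated cells (-0.28, unadjusted p = 0.0408, adjusted p = 0.249). The other 7 differences lay between -0.16 and 0.10.

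Ordered by group mean within the 24-array group, ILMN_2101920 ran from siSUPT6H_A3 (7.72), siSUPT6H_A1 (7.81) and siSUPT6H_Q3 (7.92) over siSF3B1_Q3 (8.22), siSF3B1_A3 (8.40) and siSF3B1_A2 (8.42) to Untreated (8.54) and siNeg set 1 (8.56). The one step at which neighbouring groups did not overlap was that between siSUPT6H_Q3 and siSF3B1_Q3. ILMN_3246409 had its one clear step at the same place, between siSUPT6H_Q3 (9.40) and siSF3B1_Q3 (9.65), although the highest array of the other siSUPT6H groups (9.61) was above the lowest siSF3B1_Q3 array (9.45). For HNRNPH3 ILMN_1654920 the neighbours siSF3B1_A3 (8.56) and siSF3B1_Q3 (8.94) did not overlap. The siSUPT6H groups had lower means still (8.26 to 8.53), but siSUPT6H_Q3 replicate 3 (8.87) was above siSF3B1_Q3 replicate 1 (8.73). On that probe Untreated (9.46) stood clear above siNeg set 1 (9.19). For ILMN_3270641 the step was also between siSF3B1_A3 (8.39) and siSF3B1_Q3 (8.69). HNRNPF had no clear step, from siSUPT6H_A3 (6.21) to siSF3B1_Q3 (6.73). GRSF1 ran from siSF3B1_A2 (8.44) upward in overlapping steps to siSUPT6H_A1 (9.02). The step to siSUPT6H_Q3 (9.20) was without overlap but narrow, with nearest arrays at 9.05 and 9.06. HNRNPH2 ILMN_2362245 had its clear step between siSF3B1_A3 (8.71) and siSUPT6H_Q3 (9.12). ILMN_1781764 had a narrow one between siSF3B1_A2 (5.89) and siSF3B1_Q3 (6.06), with nearest arrays at 5.94 and 5.96. How often such steps occur over all kept probes was not counted.

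Other RNA-binding genes, taken by their probe with the highest mean signal, were set beside the family. Of 29 other hnRNP genes, 25 had a kept probe. With siSUPT6H, 14 fell, 3 rose and 8 were not called (median -0.23, against 0.03 over all genes, of which 21.2% fell and 24.9% rose). RBMX, an X-linked hnRNP G gene, fell by 1.28 on the log2 scale, PCBP2 by 0.62 and HNRNPR by 0.59, and HNRNPAB (0.43), SYNCRIP (0.34) and PCBP1 (0.18) rose. With siSF3B1, 12 rose, 5 fell and 8 were not called (median 0.18, against -0.06 over all genes, of which 25.9% rose and 35.3% fell). PTBP2, the neuronal polypyrimidine tract binding protein gene, rose by 1.59, SYNCRIP by 0.80 and HNRNPA1 by 0.73, and PTBP3 (-0.92), PCBP2 (-0.59) and RALY (-0.43) fell. With siHNRNPH1, 4 rose, 7 fell and 14 were not called (median 0.02, against -0.02 over all genes, of which 20.9% rose and 22.8% fell). HNRNPA1 (0.67), PTBP2 (0.67) and SYNCRIP (0.35) rose, and HNRNPDL (-0.77), RBMX (-0.50) and HNRNPA3 (-0.47) fell, although a second HNRNPDL probe gave 0.60. The PCBP2 probes also disagreed, from -0.74 to 0.10 with siSUPT6H and from -0.59 to 0.23 with siSF3B1. Probes of further listed genes took both signs too. Among them were HNRNPK (-0.60 to 0.68), HNRNPM (-0.13 to 0.83) and HNRNPUL1 (-0.39 to 0.54) with siSF3B1. HNRNPDL ran from -0.55 to 0.33 with siSUPT6H and HNRNPA2B1 from -0.57 to 0.15 with siHNRNPH1. The counts of rises and falls thus rest on the choice of 1 probe per gene. Under median scaling the list gave 2 rises and 10 falls with siSUPT6H, 12 and 4 with siSF3B1, and 2 and 9 with siHNRNPH1, where its median was -0.20, and the calls of PCBP1 with siSUPT6H and SYNCRIP with siHNRNPH1 were lost.

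The other quasi-RRM genes with a kept probe were ESRP1, which encodes an epithelial splicing regulator, RBM12 and RBM12B, 3 of 4 listed. All 3 fell with siSUPT6H (-0.42, -0.25 and -0.32) and with siSF3B1 (-0.52, -0.60 and -0.55), where 21.2 and 35.3% of all genes fell. The 3 RBM12 probes ran from -0.43 to -0.15 with siSUPT6H and from -0.88 to -0.17 with siSF3B1. With siHNRNPH1, ESRP1 fell by 0.56 and RBM12B rose by 0.41, and RBM12 was not called, where 20.9% of all genes rose and 22.8% fell. Under median scaling the siSUPT6H calls of RBM12 and RBM12B (-0.21 and -0.27) and the siHNRNPH1 call of RBM12B (0.17) were lost. DHX36, which encodes a helicase that unwinds G-quadruplex RNA, fell with siSF3B1 (-0.74, adjusted p = 1.07e-07) and with siHNRNPH1 (-0.39, adjusted p = 0.00376), and gave -0.23 with siSUPT6H (adjusted p = 0.0918).

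Of 12 genes listed as splicing targets of hnRNP H or F, 8 had a kept probe. With siHNRNPH1, 3 rose, none fell and 5 were not called, where 20.9% of all genes rose and 22.8% fell. Median scaling left 1 rise and gave 1 fall. ERBB2, a receptor tyrosine kinase gene, rose by 1.03 (adjusted p = 1.44e-10), TCF3, which encodes the E proteins, by 0.36 and BCL2L1, an apoptosis regulator, by 0.21 (0.03 on its second probe). Of these 3, only the ERBB2 call remained under median scaling, with TCF3 at 0.083 and BCL2L1 at -0.0614. With siSUPT6H, EWSR1 (-0.44) and TCF3 (-0.39) fell and 6 were not called, where 24.9% of all genes rose and 21.2% fell. With siSF3B1, TCF3 (-1.06), EWSR1 (-1.04) and ERBB2 (-0.64) were the largest of 4 falls and HRAS (0.82) was the 1 rise, where 25.9% of all genes rose and 35.3% fell. EWSR1, one partner of the fusion gene, gave -0.20 with siHNRNPH1 (adjusted p = 0.0952), and its 3 probes ran from -0.26 to 0.11. These are levels of the probed transcripts, and exon use was not read.

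Of 18 genes that work in mitochondrial RNA processing beside GRSF1, all 18 had a kept probe. With siSF3B1, 11 rose and 5 fell (median 0.33), where 25.9% of all genes rose and 35.3% fell. They were led by HSD17B10 (0.91), TFAM (0.90), the activator of mitochondrial transcription, and DDX28 (0.82), and by LRPPRC (-0.98), which stabilises mitochondrial mRNA, DHX30 (-0.91) and FASTK (-0.69). With siSUPT6H, 7 rose and 2 fell (median 0.02), where 24.9% of all genes rose and 21.2% fell. They were led by TRMT10C (0.86), FASTKD5 (0.80) and ELAC2 (0.66), and by POLRMT (-0.48), the mitochondrial RNA polymerase gene, and TFAM (-0.31). With siHNRNPH1, 2 rose and 6 fell (median -0.12), where 20.9% of all genes rose and 22.8% fell, with PNPT1 (0.40) and HSD17B10 (0.33) higher and SUPV3L1 (-0.57), LRPPRC (-0.51) and DHX30 (-0.51) lower. One of the 3 PNPT1 probes gave -0.0859 with siHNRNPH1. Under median scaling the list gave 6 rises and 4 falls with siSF3B1 and none and 8 with siHNRNPH1, and PNPT1 (0.12) and HSD17B10 (0.059) were no longer called with siHNRNPH1.

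The probes whose pattern was most like that of a member were sought over 10 group differences (9 siRNAs and Untreated, each against a siNeg set), among 6637 probes whose differences spanned at least 1. These are descriptions, since differences of a group of arrays share their control. ILMN_3246409 of HNRNPH1 was nearest to MAZ (r = 0.974), CCDC112 (0.953) and CDS1 (0.951), and ILMN_2101920 to MAPKAPK5 (0.947), SLC6A15 (0.944) and DNA2 (0.942). The lists of the 2 probes shared no gene. Both HNRNPH3 probes were nearest to ZNF280D (0.944 and 0.943), followed by MTA3 and CXCL16 for ILMN_1654920 and by SAMD1 and MRPS18B for ILMN_3270641. GRSF1 was nearest to ATP8B2 (0.966), TIA1 (0.963) and PRKAR1A (0.963). HNRNPH2 had lower values, at 0.873 for MTMR9, 0.859 for VPS4B and 0.853 for TVP23B on ILMN_2362245. ILMN_1781764 was mostly not detected in the 12-array group, and its nearest patterns are not given. HNRNPF was called with no target and was not matched.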

How the data were processed

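Total RNA of 36 TC32 samples was hybridised to 1-colour Illumina bead arrays. Per the submitters' processing notes, GenomeStudio, R 3.0.2 and lumi were used. The deposited signal table holds the bead intensity of 47323 probes, not normalized per the file headers, and a detection p-value per probe, per the file headers; the authors' normalized values are log2 values deposited as the series value table, with their normalization not given in the sources used here. Columns were matched to samples by name, those named UTR to Untreated by elimination, and each array correlated best by rank with its own column in the authors' deposited table (36 of 36, at least 0.9997). Symbols came from the platform annotation (30113 probes with 1 symbol, 8 with several, 17202 with none).

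Intensities were background-corrected with normexp from the detection p-values, quantile-normalized and put on the log2 scale with an offset of 16 (neqc, limma 3.58.1, R 4.3.3). Kept were 19738 probes with a detection p under 0.01 on at least 3 arrays. One limma model of 12 groups (24 residual degrees of freedom, trended eBayes) gave every contrast, two-sided. Calls required p under 0.05 after Benjamini-Hochberg adjustment over all kept probes. Each siRNA was compared with its own siNeg set, and the 3 siRNAs of a target were averaged and compared by F test. Differences between 2 probes of a gene were tested over all 4685 such pairs of 3008 genes. The scripts were tested on simulated data. Genes were named by rule: every member probe, up to 3 called rises and falls per list and target, and the 3 nearest patterns per called member probe. The members and lists were chosen with earlier results of these data known. Alternatives were other controls, the authors' values, no background correction, median scaling, normalization of each array group, other filters, blocks, no trend, and leaving out each array. Median scaling of the gene lists was added after seeing the data. The number of arrays limits the precision. Probe, siRNA and protein sequences were not used here.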

Additional observations from a re-analysis of the deposited data

Results flagged for a closer look

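The siRNAs of one target differed from each other on 6 occasions among the 24 tests of 8 probes with 3 targets, by the moderated F test with adjustment over all kept probes. For HNRNPH2 ILMN_2362245 this was so with all 3 targets: siHNRNPH1 (adjusted p = 1.68e-11; 0.28, -0.60 and 0.59 with A2, A3 and Q3), siSUPT6H (adjusted p = 1.41e-05; 0.11, 0.08 and 0.72 with A1, A3 and Q3) and siSF3B1 (adjusted p = 0.0135; -0.15, 0.32 and 0.02 with A2, A3 and Q3). For GRSF1 it was so with siHNRNPH1 (adjusted p = 0.00894; 0.02, 0.11 and 0.39) and with siSUPT6H (adjusted p = 0.0301; 0.19, 0.02 and 0.36). For HNRNPH3 ILMN_1654920 it was so with siSF3B1 (adjusted p = 0.0254; -0.16, -0.62 and -0.25), and the second HNRNPH3 probe just missed it (adjusted p = 0.0524). The same test called 33.7, 27.3 and 11.2% of all kept probes with siHNRNPH1, siSUPT6H and siSF3B1 in that order. The count of 6 in 24 lies within the range of these shares and is not read as particular to the family. Groups of 3 arrays were not searched for single outlying arrays.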

How the results depend on the processing

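Most member values kept their direction and their side of the threshold. Counts of called probes changed by over 1.5 times as follows. For siSF3B1, 3 of 8 became 5 with all 6 siNeg arrays as controls, 5 with the authors' deposited values, 5 with no background correction, and 0 with the siRNAs as a random block (correlation 0.383). For siHNRNPH1, 4 became 8 with Untreated as control, 2 with median scaling and 2 with the random block. For siNeg against Untreated, 0 became 5 with all 6 siNeg arrays. Leaving out 1 array gave 5 to 6 calls for siSUPT6H, 2 to 4 for siSF3B1, 3 to 4 for siHNRNPH1 and 0 to 0 for siNeg against Untreated.

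Directions turned mainly where a control from the other group of arrays entered, which by construction adds the difference between the siNeg sets. With all 6 siNeg arrays, siSF3B1 gave 0.0695 and 0.10 for HNRNPH3 (ILMN_3270641, ILMN_1654920) and 0.39 for HNRNPH1 ILMN_2101920. Singly, siSF3B1_A2 gave 0.24, 0.28 and 0.46 on these probes, and siSF3B1_A3 and siSF3B1_Q3 gave 0.44 and 0.26 on ILMN_2101920. In that setting siHNRNPH1 gave -0.0815 for HNRNPH3 ILMN_3270641 (siHNRNPH1_Q3 -0.0179), and siHNRNPH1_A2 gave -0.0609 for ILMN_1654920. siNeg minus Untreated was -0.58 for ILMN_2101920. With all 6 siNeg arrays or Untreated as control, siHNRNPH1 minus siSF3B1 was -0.15 and -0.0622 for HNRNPH3 (ILMN_3270641, ILMN_1654920).

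With Untreated as control, siHNRNPH1 gave -0.35 for HNRNPF, and -0.59 and -0.68 for HNRNPH3 (ILMN_3270641, ILMN_1654920). In the same order siHNRNPH1_A2 gave -0.42, -0.61 and -0.78, siHNRNPH1_A3 gave -0.44, -0.64 and -0.64, and siHNRNPH1_Q3 gave -0.53 and -0.63 without HNRNPF. HNRNPH2 ILMN_1781764 was detected on 1 of 3 arrays with siHNRNPH1_A2 and siNeg set 2 and on 0 of 3 with siHNRNPH1_A3 and siHNRNPH1_Q3, so its normalized signals there are no levels, and their differences are no folds and settle no direction. They were -0.37 (siHNRNPH1), -0.45 (siHNRNPH1_A3), -0.39 (siHNRNPH1_Q3) and -0.41 (siNeg minus Untreated) with all 6 siNeg arrays, and -0.78, -0.69 (siHNRNPH1_A2), -0.85 (siHNRNPH1_A3) and -0.80 (siHNRNPH1_Q3) with Untreated as control. Set 2 minus set 1 turned to -0.41, -0.34 and -0.19 for GRSF1, HNRNPH1 ILMN_3246409 and HNRNPH2 ILMN_2362245 in the authors' deposited values, and to -0.46, -0.35 and -0.20 when each group of arrays was normalized alone. Median scaling gave siSF3B1_Q3 on ILMN_1781764 as -0.0136 and siSUPT6H minus siSF3B1 for HNRNPF as 0.0594. The medians of all kept probes were then -0.20 and 0.13 in these contrasts. Relative to those medians the values were 0.19 and -0.0748, with the sign unchanged. With siHNRNPH1, where that median was -0.12, HNRNPH3 relative to it was 0.32 on ILMN_1654920 and 0.16 on ILMN_3270641. Other than by its construction, the cause of each change was not tested.

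Deviations of same-numbered arrays of different groups correlated at -0.116 to 0.274 (median 0.01), not every pair over 0.1, so the numbers are not taken as pairs. Of 36 arrays 18 matched best with their own number, where 12 would with no relation. With a replicate block, siSF3B1 had 4 calls, HNRNPH2 ILMN_1781764 being called at 0.30 (adjusted p = 0.0431). Between the siNeg sets the block gave HNRNPF -0.22 (adjusted p = 0.322), but this stands for arrays numbered 1 and does not test the mean. The HNRNPF call between the sets reached an adjusted p of 0.194 in the fits that left out 1 array. Dim probes limit HNRNPH2 ILMN_1781764, and ILMN_2101928 and ILMN_2341645 give no level. HNRNPH1 ILMN_2101920 was dim with siHNRNPH1.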

Other observations

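The siRNAs whose names end in Q3 gave the highest mean of the 3 siRNAs of a target for GRSF1 with siSUPT6H (0.36) and siHNRNPH1 (0.39) and for HNRNPH2 ILMN_2362245 with the same 2 targets (0.72 and 0.59), and not with siSF3B1, where siSF3B1_A3 was highest for both. On HNRNPH2 ILMN_1781764 the Q3 siRNA was highest with siSUPT6H (0.63) and also with siSF3B1 (0.43). HNRNPF was highest with siSF3B1_Q3 (0.29) and siHNRNPH1_Q3 (0.30), both not called, but with siSUPT6H_A1 (0.03) for the third target. What the letter stands for is not stated in the labels, and the pattern was noticed after the values were seen.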
